A study of Bos taurus with 16 samples.

Results

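The matrix metalloproteinases (MMPs) and their tissue inhibitors (TIMPs) were followed in the muscles of newborn Hanwoo calves. The 9 genes were taken by symbol: MMP2 (NCBI gene ID 282872), MMP9 (282871), MMP14 (281915), MMP15 (282887), MMP19 (533203), TIMP1 (282092), TIMP2 (282093), TIMP3 (282094) and TIMP4 (317694). All 9 had a row among the 34109 genes of the deposited tables. RNA came from the round and the sirloin muscle of 8 calves, which gave 16 libraries. Hanwoo is a Korean cattle breed (Bos taurus), and according to the study's methods the calves were male and were euthanized after birth without having had colostrum. The control group (4 calves) was born to cows fed 100% of their nutritional requirement, and the treated group (4 calves) to cows fed 150% of it during mid to late pregnancy. Each calf gave both muscles and came from a different cow, so the calf was the replicate. Libraries are named by muscle, group and replicate number.

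MMPs are zinc-dependent enzymes that cut collagens, laminins, fibronectin and other proteins of the matrix between cells. They are made as inactive proenzymes. TIMPs bind the active site and stop the enzyme. The system has cross-links: MMP14, which sits in the cell membrane, activates the secreted gelatinase MMP2, and TIMP2 both inhibits MMP2 and takes part in that activation. In growing skeletal muscle the matrix around fibres is rebuilt continuously, and fibroblasts and vessel cells are known sources of MMP2 and of TIMPs besides the fibres. In bulk RNA, a change in the number of such cells and a change in the RNA per cell cannot be told apart.

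Total counts per library were 44473011 to 72446933 in round and 44863173 to 72165291 in sirloin muscle. Skeletal muscle fibre genes summed to between 55200 and 101000 TPM (a relative scale corrected for gene length and library size) in every library. A pair of libraries stood apart in the markers of other cell types. Round control replicate 2 had 1540 TPM over 7 fibroblast markers, against 249 to 410 in the other round libraries, and 169 TPM over 5 tendon markers, against 18.6 to 45.9. Sirloin treated replicate 4 had 3780 TPM over 5 adipocyte markers, against 0.73 to 4.84 in the other sirloin libraries. Member results that move with these libraries are given with and without them.

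**Figure D1:**
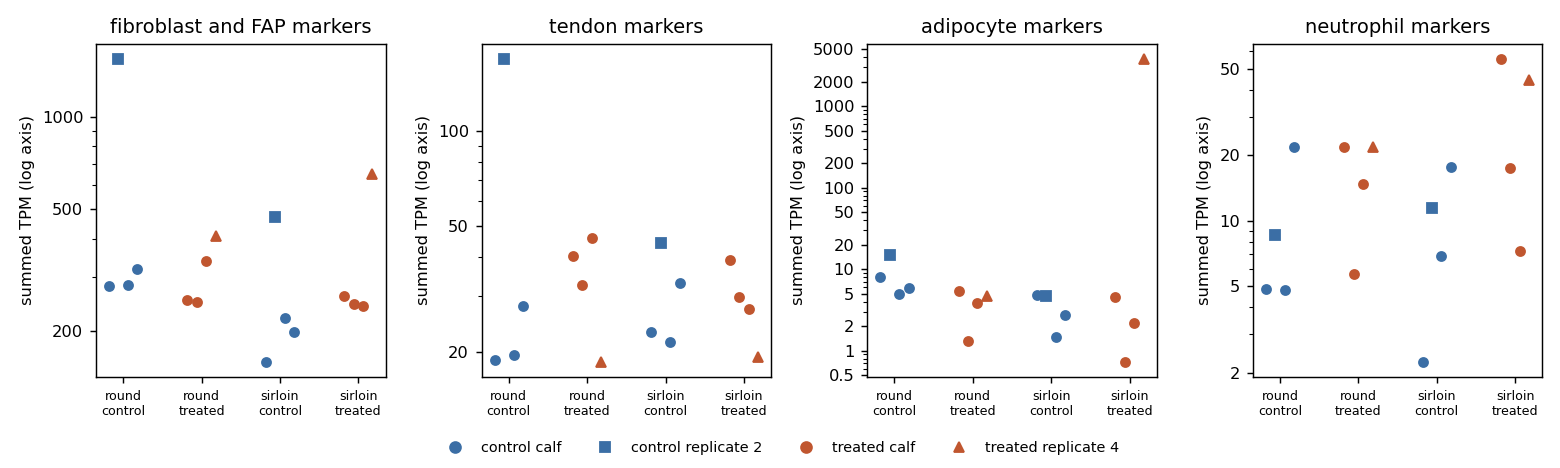
Summed TPM of 4 marker lists in each library (log axes), by muscle and group, with 4 calves per group. Round control replicate 2 (square) lies above all other libraries for fibroblast (with fibro-adipogenic progenitor, FAP) and tendon markers, at 1540 and 169 TPM. Sirloin treated replicate 4 (triangle) lies above all others for adipocyte markers, at 3780 TPM, and sirloin treated replicates 1 and 4 are highest for neutrophil markers, at 55.3 and 44.5 TPM.

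Expression of the 9 genes differed widely in level. TIMP3, an inhibitor that stays bound to the matrix, had the highest mean TPM over the 16 libraries, 55.2 ± 19.1 (SD). TIMP2 followed with 37.7 ± 23.9, MMP2 with 30.0 ± 11.1 and TIMP4, the TIMP best known from heart and skeletal muscle, with 24.2 ± 9.6. The next mean levels were 9.04 ± 5.47 TPM for MMP14, 7.86 ± 5.58 for TIMP1, 3.45 ± 1.68 for the membrane-bound MMP15 and 1.2 ± 0.978 for the secreted MMP19. MMP9, the gelatinase stored in neutrophil granules, was barely present, with 47 counts in all 16 libraries together and 0 counts in 11 of them. Inhibitors thus held 3 of the 4 highest places, and MMP2 was the only enzyme among them.

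Not every step in this order held in each library. TIMP3 exceeded TIMP2 in 13 of 16 libraries, TIMP2 exceeded MMP2 in 9, MMP2 exceeded TIMP4 in 10 and MMP14 exceeded TIMP1 in 8. Those neighbours were therefore close relative to their spread. TIMP4 exceeded MMP14, TIMP1 exceeded MMP15, MMP15 exceeded MMP19 and MMP19 exceeded MMP9 in all 16 libraries. MMP2 alone made up 57.5% to 77.2% of the summed TPM of the 5 MMPs, and TIMP3 made up 31.2% to 59.1% of that of the 4 TIMPs. Highest and lowest library differed 3.33-fold for MMP2 and 3.73-fold for TIMP3, but 8.3-fold for TIMP2 and 18.5-fold for MMP19.

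**Figure D2:**
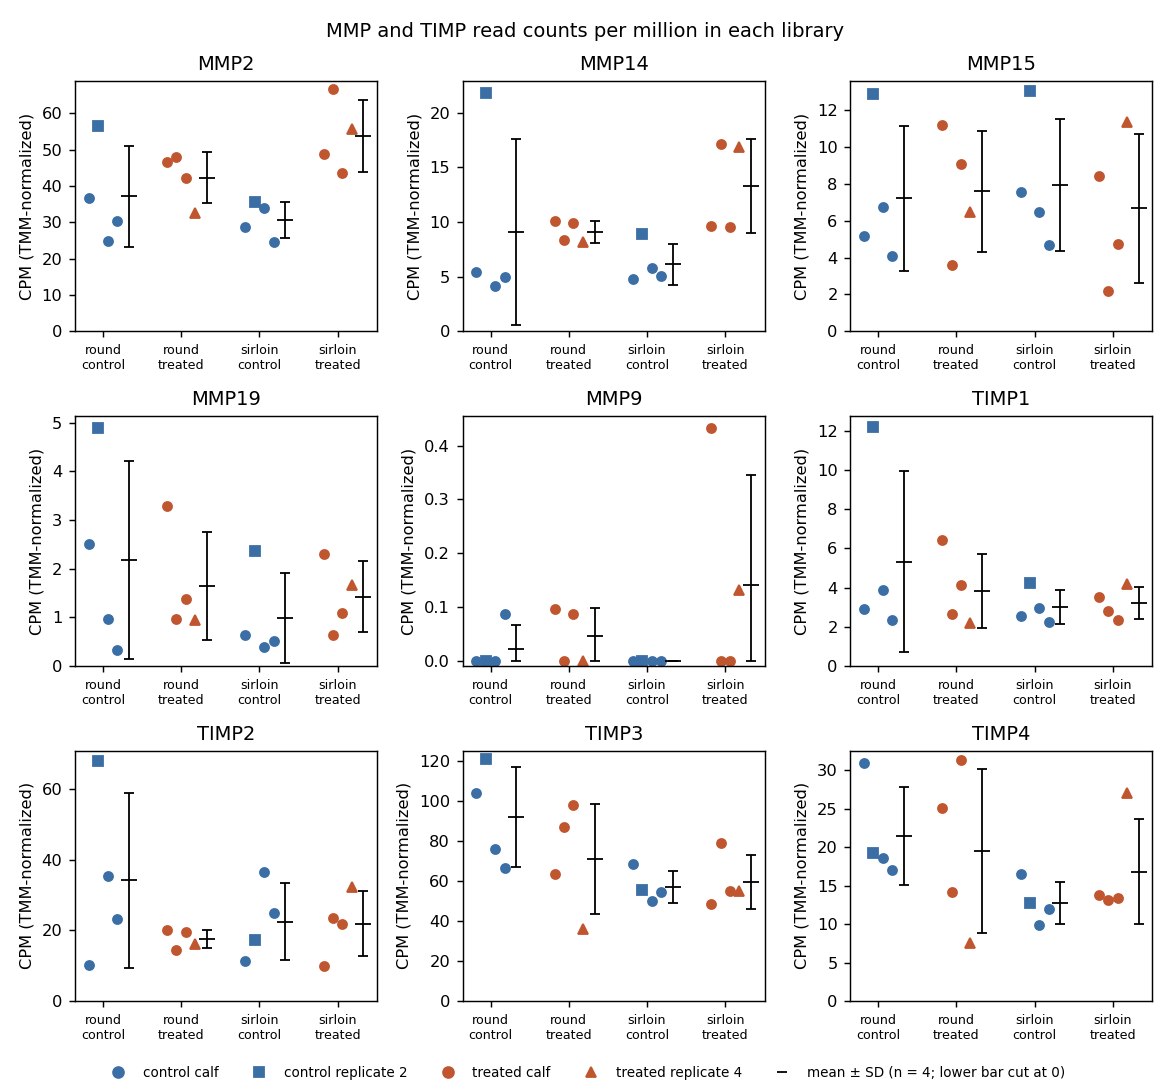
CPM (counts scaled to library size, TMM-normalized) of the 9 genes in each of the 16 libraries, with a linear axis for each gene. Points are calves in replicate order, squares and triangles mark control replicate 2 and treated replicate 4, and black bars give the mean ± SD of 4 calves with the lower bar cut at 0. In sirloin muscle MMP2 and MMP14 are higher in every treated library than in any control library, whereas in round muscle the control replicate 2 library is the highest for 7 of the 9 genes.

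The first comparison asked whether the diet of the cow was linked to MMP and TIMP expression in sirloin muscle. MMP2 and MMP14 were higher in all 4 treated calves than in all 4 control calves. No member passed the threshold after adjustment for 21776 genes (edgeR quasi-likelihood test, adjusted p under 0.05, 0 of 9), where the background was 0.00918% of genes called. At an unadjusted p under 0.05 there were 3 members (MMP2, MMP9 and MMP14), all higher in the treated calves, and 2.3% of all genes were higher at that level. Groups without overlap, higher in treated calves, occurred for 2 members and for 0.859% of all genes.

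MMP2, which cuts denatured collagen and the collagen of basement membranes, had 28.6, 35.5, 33.9 and 24.7 CPM in the control sirloin libraries 1 to 4. In the treated libraries it had 48.9, 66.7, 43.7 and 55.7 CPM. The lowest treated library was above the highest control library. The log2 fold change was 0.81 (SE 0.206), a 1.75-fold difference (95% interval 1.28 to 2.39), with an adjusted p of 0.876 in edgeR, and MMP2 ranked 20 by p among the genes tested. DESeq2 gave a log2 fold change of 0.81 with an adjusted p of 0.244, and the adjusted p of MMP2 ranged from 0.244 to 1 over the alternative settings.

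MMP14, the membrane-bound activator of MMP2, had 4.80, 8.90, 5.74 and 5.09 CPM in the control sirloin libraries. It had 9.64, 17.2, 9.57 and 16.9 CPM in the treated libraries. The groups did not overlap, although control replicate 2 came close to treated replicates 1 and 3. The log2 fold change was 1.11 (SE 0.303), a 2.16-fold difference (95% interval 1.36 to 3.43), with an adjusted p of 0.876 in edgeR (0.291 to 1 over the alternative settings) and rank 28 by p. In the cattle annotation used for names (ARS-UCD2.0), MMP14 overlaps RBM23, which differed by -0.13 (SE 0.24) on the log2 scale.

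Without treated replicate 4, the library rich in adipocyte markers, the log2 fold change was 0.80 for MMP2 and 0.99 for MMP14 (edgeR, adjusted p = 0.955 for both, unadjusted p under 0.05 for both). Leaving out each calf in turn gave 0.68 to 0.89 for MMP2 and 0.96 to 1.35 for MMP14. The summed TPM of the 7 fibroblast markers was 159 to 470 in control and 241 to 653 in treated sirloin libraries, with 0 markers listed at 0, and PDGFRA, a marker of fibro-adipogenic progenitors, had a log2 fold change of 0.92 (SE 0.275, adjusted p = 0.876, edgeR). Of the 7 fibroblast markers, 6 had higher values in treated calves.

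Several marker lists of other cells also leaned to 1 side between the diet groups in sirloin muscle, and no gene of these lists was called. The 6 macrophage markers summed to 4.82 to 13.1 TPM in control and to 7.85, 31.8, 4.87 and 16.6 TPM in treated libraries 1 to 4, with 0 genes at 0. Treated replicates 2 and 4, with the highest of these sums, were also the highest for MMP2 and MMP14. The sums of treated replicates 1 and 3 lay within the control range. Of the 6 macrophage markers 5 had higher values in treated calves (median log2 fold change 1.05), and MRC1 was lower at -0.776. CD163 was at 1.56 and AIF1 at 1.83 (edgeR, adjusted p = 0.876 for both, unadjusted p under 0.05 for both). The 4 red blood cell markers tested all had higher values (median 1.45). Their means over all libraries were 6.6 (HBB), 3.83 (HBA), 0.0811 (ALAS2) and 0.00636 TPM (HBM). The study's methods name a kit that depletes globin RNA, and its part in these values was not tested. The red blood cell list summed to 2.07 to 10 TPM in control libraries, where 2 to 3 genes were at 0. In treated libraries it summed to 9.98 to 26.6 TPM, where 1 to 3 were. In round muscle the 3 red blood cell markers tested also had higher values in treated calves (median 1.48). In sirloin muscle all 8 skeletal muscle fibre genes had lower values in treated calves (median -0.322, none at an unadjusted p under 0.05). So had all 5 tendon markers (median -0.866) and all 5 Schwann cell markers (median -0.27), none of them at that level. The part of these cells, and of the fibroblasts, in the MMP2 and MMP14 values was not tested.

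MMP9 had 0 counts in all 4 control sirloin libraries, and 22, 0, 0 and 9 counts in treated replicates 1 to 4. The signal thus came from a pair of treated calves. Over the group, the treated level of 0.131 CPM was 9.77-fold the control floor of 0.0134 CPM. That floor stands for 3 counts over the 4 control libraries and covers counting error only. The ratio leaves out the spread between calves, and the 95% interval of the fold change in edgeR was 1.86 to 2320. The edgeR test gave an adjusted p of 0.876 with an unadjusted p under 0.05. Without treated replicate 1 the unadjusted p was above 0.05 (adjusted p = 0.822). The same treated replicates 1 and 4 had the highest sums of the 6 neutrophil markers, 55.3 and 44.5 TPM, against 2.24 to 17.7 TPM in the other 6 sirloin libraries. In those sums 2 of the 6 genes were at 0 in replicate 1 and 1 in replicate 4, and MPO and ELANE, which neutrophil precursors make, averaged 0.0251 and 0.0381 TPM over all libraries. In round muscle treated replicate 4 had 21.7 TPM of these markers and 0 MMP9 counts. Control replicate 4 and treated replicates 1 and 3 had 21.8, 21.7 and 14.8 TPM there, with 4, 6 and 6 MMP9 counts. The part of neutrophils in the MMP9 counts was not tested.

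The other members showed no difference beyond the spread between calves in sirloin muscle. MMP15 had a mean of 7.94 ± 3.61 CPM (SD, n = 4) in control and 6.67 ± 4.04 in treated calves, with a log2 fold change of -0.26 (SE 0.478). MMP19 had 0.983 ± 0.923 and 1.43 ± 0.722 CPM, with a log2 fold change of 0.52 (SE 0.618). Without control replicate 2, whose 2.36 CPM of MMP19 exceeded the 0.399 to 0.647 of the other controls, the MMP19 value was 1.44 (adjusted p = 0.825, edgeR). It was then 1 of 4 members higher at an unadjusted p under 0.05, beside 2.88% of all genes.

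The inhibitors stayed close between the diets in sirloin muscle, within intervals that still allow sizeable differences. TIMP3 averaged 57.0 ± 7.93 CPM in control and 59.4 ± 13.4 in treated calves, a 1.04-fold difference (95% interval 0.757 to 1.43). TIMP2 averaged 22.4 ± 11 and 21.9 ± 9.14 CPM, a 0.968-fold difference (0.525 to 1.78). TIMP1, a soluble inhibitor that binds proMMP9, averaged 3.01 ± 0.869 and 3.21 ± 0.804 CPM, a 1.06-fold difference (0.65 to 1.74). TIMP4 had 16.5, 12.7, 9.93 and 11.9 CPM in control and 13.8, 13.1, 13.4 and 27.0 CPM in treated libraries. The single high value was treated replicate 4, the library with the adipocyte markers, in which 6 endothelial markers summed to 174 TPM against 63.3 to 79.4 in the other sirloin libraries. The part of these cells in its TIMP4 level was not tested. The TIMP4 log2 fold change was 0.39 (SE 0.28) with this calf and 0.08 without it. Over the 9 members the median log2 fold change was 0.391, beside 0.0287 over all genes, with 0.805 for the 5 MMPs and 0.0727 for the 4 TIMPs.

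**Figure D3:**
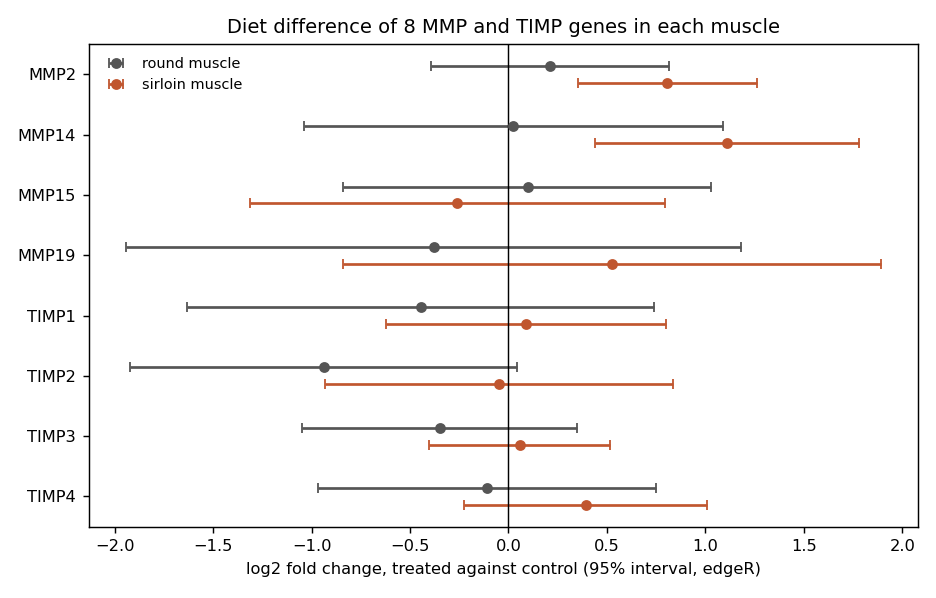
Log2 fold change of treated against control calves for 8 of the 9 genes in each muscle, with 95% intervals from edgeR (n = 4 calves per group). MMP9 is left out because its counts were near 0. The sirloin intervals of MMP2 (0.351 to 1.26) and MMP14 (0.44 to 1.78) lie above 0, and all other intervals include 0.

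The same comparison in round muscle gave no member past the threshold (edgeR, 0 of 9, background 0.0185%) and none at an unadjusted p under 0.05, where the background was 4.41%. No member had groups without overlap, beside 1.76% of all genes. The lowest p was that of TIMP2. It had 10.1, 67.9, 35.3 and 23.2 CPM in the control round libraries 1 to 4 and 20.0, 14.4, 19.5 and 16.2 CPM in the treated ones. The treated calves lay close together, while the controls reached from below them to well above them. The log2 fold change was -0.94 (SE 0.45, adjusted p = 0.864, edgeR), and it was -0.40 (adjusted p = 0.797) without control replicate 2. DESeq2 gave -0.95 with an adjusted p of 0.979 and an unadjusted p under 0.05.

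MMP14 in round muscle had 5.39, 21.8, 4.15 and 4.94 CPM in control and 10.1, 8.31, 9.87 and 8.17 CPM in treated calves. All treated libraries were above controls 1, 3 and 4 and below control 2, the library with the fibroblast and tendon markers. The log2 fold change was 0.02 (SE 0.486) over all calves, and 0.91 without control replicate 2, with an adjusted p of 0.788 (edgeR). MMP14 was then the 1 member higher at an unadjusted p under 0.05, beside 2.51% of all genes. MMP2 had 36.8, 56.5, 24.8 and 30.4 CPM in control and 46.5, 48.0, 42.3 and 32.5 CPM in treated round libraries, which overlapped. Its log2 fold change was 0.21 (SE 0.277) with all calves and 0.45 (adjusted p = 0.788, edgeR) without control replicate 2. The part of fibroblasts or tendon in that library's values was not tested.

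The remaining round values were spread widely. TIMP1 had 12.2 CPM in control replicate 2 against 2.36 to 3.86 in the other controls and 2.21 to 6.40 in the treated calves, and its log2 fold change of -0.44 (SE 0.542) was 0.33 without that calf. MMP15 had a log2 fold change of 0.10 (SE 0.429), MMP19 of -0.38 (SE 0.713), TIMP3 of -0.35 (SE 0.32) and TIMP4 of -0.11 (SE 0.394). MMP9 had 0, 0, 0 and 4 counts in control and 6, 0, 6 and 0 counts in treated libraries. The median over the 9 members was -0.109, beside 0.0234 over all genes, with 0.0981 for MMPs and -0.397 for TIMPs.

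The balance of inhibitor to enzyme mRNA was described by the summed TPM of the 4 TIMPs divided by that of the 5 MMPs. In round muscle the ratio was 4.08, 3.57, 5.8 and 4.08 in control replicates 1 to 4 and 2.54, 2.59, 3.54 and 1.97 in treated replicates. In sirloin muscle it was 3.4, 2.32, 3.52 and 4.09 in the control libraries, against 1.6, 1.87, 2.32 and 2.23 in the treated ones. Ratios were thus low in treated calves of both muscles, with the highest treated and the lowest control library close together (3.54 and 3.57 in round, 2.32 and 2.32 in sirloin). In sirloin muscle the MMP sum was 25.2 to 42.4 TPM in control and 46.8 to 74.6 TPM in treated libraries, whereas the TIMP sum was 88.5 to 110 and 86.4 to 149 TPM. In round muscle the MMP sum was 23.5 to 31.1 TPM in control replicates 1, 3 and 4, 76.1 in control replicate 2 and 33.6 to 49.6 in the treated calves. These sums and ratios were not tested, and no share over other genes was computed for them. MMP2, compared by itself above, made up 57.5% to 77.2% of the MMP sum. Levels of mRNA do not give the amount of active enzyme or of free inhibitor.

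**Figure D4:**
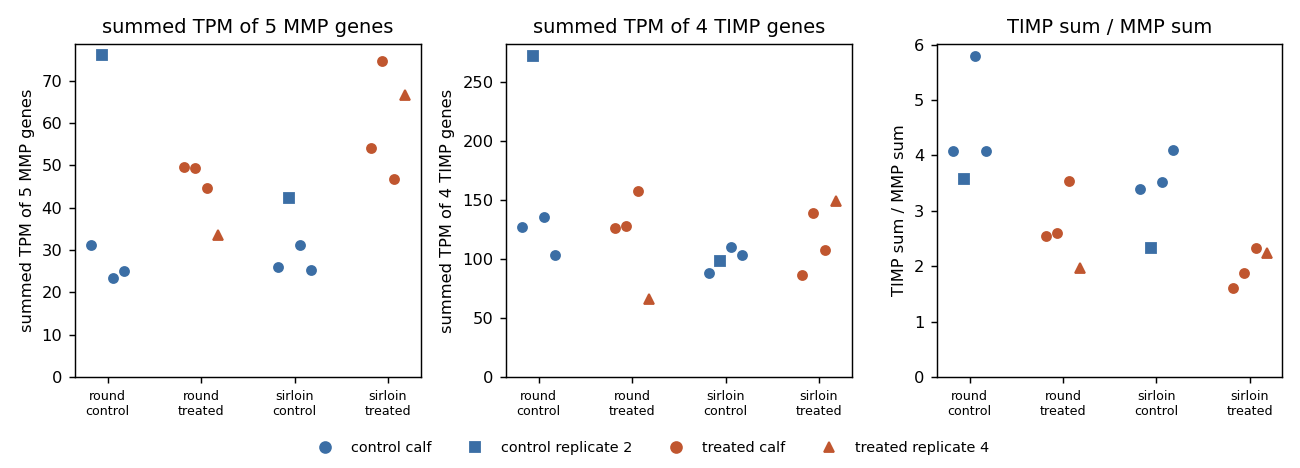
Summed TPM of the 5 MMPs (left), of the 4 TIMPs (middle) and the ratio of the sums (right) in each library, with 4 calves per group and axes from 0. The ratio ranges from 3.57 to 5.8 in control and 1.97 to 3.54 in treated round libraries, and from 2.32 to 4.09 in control and 1.6 to 2.32 in treated sirloin libraries.

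Whether the diet difference itself differed between the muscles was tested with an interaction term over all 16 libraries with the calf as a block. No member passed (edgeR, 0 of 9, background 0.00437%), and none had an unadjusted p under 0.05, beside 3.78% of all genes. The difference between sirloin and round log2 fold changes was 0.57 (SE 0.269, 95% interval -0.0186 to 1.15) for MMP2 and 0.74 (SE 0.41, -0.156 to 1.63) for MMP14, each with an adjusted p of 1 in edgeR. It was above 0 for 8 of the 9 members, with a median of 0.588 beside 0.028 over all genes, and -0.49 (SE 0.362) for MMP15. With the calves of control replicate 2 and treated replicate 4 left out together, an alternative chosen after seeing the data, the value fell to 0.27 for MMP2 and 0.19 for MMP14. In that fit 6 of the 9 members were above 0, and 1 was below it at an unadjusted p under 0.05, beside 3.43% of all genes in either direction. In every other setting at most 2 members were at that level, and none was called. A different response of the muscles was therefore not shown for these genes. In simulated data the interaction test recovered only 29.5% of genes with a log2 change of 2.

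The muscles were then compared within calf, as sirloin minus round. Same-calf libraries deviated together, with a correlation of 0.322 to 0.769 after removal of the group means, against at most 0.477 between a round library and the sirloin library of another calf. The value of 0.322, that of treated replicate 4, lay below this maximum. No member passed the threshold (edgeR with the calf as a block, 0 of 9, background 0.533%), and 1 member (TIMP3) had an unadjusted p under 0.05, where the background was 5.45% lower in sirloin. TIMP3 and TIMP4 were each lower in sirloin in 7 of 8 calves, which held for 6.08% of all genes. In both cases the exception was treated replicate 4.

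TIMP3 had differences of -0.60, -1.12, -0.61 and -0.30 log2 CPM in control calves 1 to 4 and -0.38, -0.14, -0.83 and 0.61 in treated calves 1 to 4. The log2 fold change was -0.43 (SE 0.16, adjusted p = 0.313, edgeR), a 0.745-fold level in sirloin. TIMP4 had differences of -0.91, -0.60, -0.91 and -0.51 in the control calves, against -0.86, -0.11, -1.22 and 1.83 in the treated ones, with a log2 fold change of -0.46 (SE 0.269, adjusted p = 0.608, edgeR). Without treated replicate 4, whose sirloin library held 3780 TPM of adipocyte markers and its round library 4.73, the values were -0.56 for TIMP3 (adjusted p = 0.0498) and -0.73 for TIMP4 (adjusted p = 0.0245, edgeR). In that fit 1.63% of all genes were called and 1.04% were called lower in sirloin. With control replicate 2 left out as well, neither was called (adjusted p = 0.126 for TIMP3 and 0.0603 for TIMP4).

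**Figure D5:**
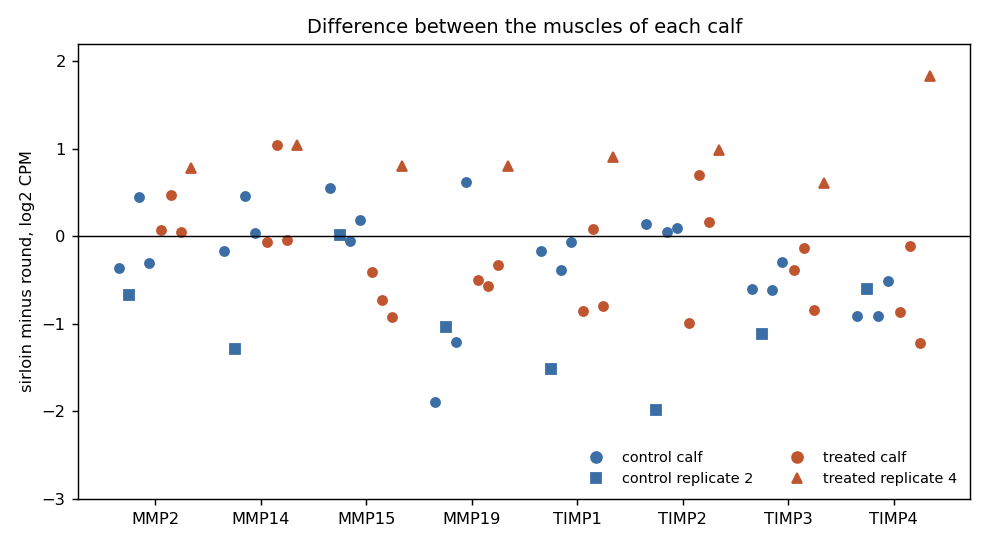
Difference of log2 CPM (prior count 2) between the sirloin and the round muscle of each calf, for 8 genes and 8 calves. Values below 0 are lower in sirloin. For TIMP3 and TIMP4, 7 calves lie below 0 and treated replicate 4 (triangle) lies above it, at 0.61 and 1.83, and this calf is above 0 for all 8 genes.

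The enzymes did not separate the muscles. MMP2 was higher in sirloin in 5 of 8 calves, with a log2 difference of 0.06 (95% interval -0.27 to 0.392), MMP14 in 4 of 8 with 0.13 (-0.354 to 0.619) and MMP15 in 4 of 8 with -0.07 (-0.475 to 0.34). MMP19 was lower in sirloin in 6 of 8 calves, at -0.55 (-1.18 to 0.0797). TIMP1 was lower in 6 of 8 at -0.36 (-0.858 to 0.133), and TIMP2 was higher in 6 of 8 although its fitted difference was -0.08 (-0.665 to 0.503), with control replicate 2 at -1.98. MMP9 was 0 in both muscles of 4 calves and was higher in round in 2 calves and in sirloin in 2. The median of the 9 members was -0.0813, beside 0.00411 over all genes.

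The genes around the system were counted over 7 lists of 94 genes, of which 92 had a row. In the diet comparisons 0 of 84 tested list genes in round and 0 of 83 in sirloin muscle passed the threshold, and 7 and 4 of them had an unadjusted p under 0.05, beside 4.41% and 3.91% of all genes. Of the plasminogen system, which activates proMMPs through plasmin, PLAUR, the urokinase receptor, had a log2 fold change of -1.87 in round muscle. PCSK5, a proprotein convertase, was at 0.78 in sirloin muscle. Among other MMPs, 9 genes were tested in round and 7 in sirloin muscle. The smallest p-values were those of MMP16 (-1.88) and MMP28 (-0.73) in round. In sirloin they were those of MMP25 (1.82) and MMP17 (0.40), at low means of 0.14 and 0.221 TPM. Among other inhibitors and receptors they were those of TFPI2 (-0.98) and A2M (-0.58) in round and of RECK (0.67) and A2M (1.01) in sirloin. Several of these values moved with the libraries that stood apart. Without control replicate 2, MMP16 turned to 0.36 in round muscle, PLAUR was at -1.04, TFPI2 at -0.64 and A2M at -0.29, and MMP17 was at 1.01 in sirloin muscle. Without treated replicate 4, PCSK5 turned to -0.0372 and A2M to -0.19 in sirloin muscle, RECK was at 0.28 and MMP17 at 0.21.

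No gene for the matrix proteins that MMPs cut passed the threshold in the diet comparisons. In round muscle 16 of 20 substrate genes had lower values in treated calves, with a median log2 fold change of -0.498, with the smallest p-values for COL1A1 (-1.61) and FN1 (-1.32). Without control replicate 2 those values were 0.22 and 0.09. In sirloin muscle 15 of 20 were higher, with a median of 0.199, with the smallest p-values for NID1 (0.65, at an unadjusted p under 0.05), a basement membrane linker, and LAMA2 (0.40). Of the ADAM and ADAMTS proteases, 14 of 16 were lower in round (ADAMTS20 at -1.01 and ADAM9 at -0.67) and 10 of 16 higher in sirloin, where ADAM9 was at -0.85 and ADAMTS4 at 0.91 (1.53 without control replicate 2 and 0.39 without treated replicate 4). Of the collagen crosslinking enzymes, 7 of 11 were lower in round (LOXL4 at -0.98 and P4HA2 at -0.64) and 8 of 11 higher in sirloin (PLOD3 at 0.31 and PLOD1 at 0.46, or 0.12 and 0.30 without treated replicate 4). Of TGF-beta ligands and cytokines, 10 of 12 were lower in round (TGFB1 at -0.77) and 7 of 13 in sirloin (PDGFB at -0.63). IL6 in round and OSM in sirloin shared the smallest p-values there at means of 0.0253 and 0.0146 TPM, too low for a fold. In round control replicate 2 the ADAM and ADAMTS list summed to 171 TPM, against 96 to 115 in the other round libraries. The crosslinking list was at 230 against 77.1 to 193, and the TGF-beta and cytokine list at 131 against 36.9 to 72.2. How many of their genes were lower without that library was not counted. ADAMTS20, ADAM9, LOXL4, P4HA2 and TGFB1 stayed below 0 in round muscle without any 1 calf.

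Between the muscles, SERPINE2 and CCN2 were among the list genes that fell in sirloin (edgeR with the calf as a block). In that fit 0.533% of all genes were called. Each of these genes was lower in sirloin in 8 of 8 calves, and 6.08% of all genes were lower in at least 7 of 8. SERPINE2, an inhibitor of serine proteases, fell by 0.85 on the log2 scale (SE 0.164, adjusted p = 0.0411). CCN2, a matrix-associated growth factor known as CTGF, fell by 1.36 (SE 0.238, adjusted p = 0.0247). Without the calf as a block neither was called (adjusted p = 0.695 for SERPINE2 and 0.293 for CCN2). SERPINE2 was also lost (adjusted p = 0.0509 to 0.114) without any 1 of the calves other than treated replicate 4, and CCN2 (0.07 to 0.0786) without control replicates 3 or 4 or treated replicate 1. With the calves of control replicate 2 and treated replicate 4 both left out, the adjusted p of SERPINE2 was 0.0772. In limma on log2(TPM + 1) and log2(TPM + 0.1) neither was called, with adjusted p = 0.128 and 0.106 for SERPINE2 and 0.117 and 0.0884 for CCN2.

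Of the 20 matrix substrates 19 had lower values in sirloin, with a median of -0.328 beside 0.00411 over all genes, and 8 had an unadjusted p under 0.05, all lower in sirloin and beside 5.45% of all genes, but none was called. COL1A2 was at -1.07 (adjusted p = 0.0796) and COL1A1 at -1.07 (adjusted p = 0.0947, edgeR), and DESeq2 called both (adjusted p = 0.000569 and 0.00108). DESeq2 called 822 of 22877 genes in this comparison, where edgeR called 122. All 11 crosslinking genes had lower values (median -0.328, none called), with LOXL2 at -0.93 and LOXL4 at -0.73 (DESeq2 adjusted p = 0.0197 and 0.046). ADAM and ADAMTS genes were lower for 12 of 16, with ADAMTS2 at -0.59 and ADAM12, at 0.101 TPM, having the smallest p-values. Of the other MMPs 7 of 9 were lower, with MMP23 at -0.61 and MMP16 at -0.80. The 7 include MMP27 and MMP3, which were barely present at means of 0.0094 and 0.00617 TPM. Of the other inhibitors 5 of 6 were lower, with TFPI2 at -0.45 and CAV1 at -0.50. ACTA2, a marker of smooth muscle and pericytes, fell by 0.69 in the same comparison (adjusted p = 0.0423, edgeR), where 0.533% of all genes were called. The call was lost without the block (adjusted p = 0.718) and in limma-voom (0.0522). It was also lost in limma on log2(TPM + 1) and log2(TPM + 0.1) (0.132 and 0.112). Leaving out the calves of both libraries that stood apart (0.0547), or any 1 of 6 calves (0.0913 to 0.127), ended it too. The 6 markers of these cells summed to 75.8 to 216 TPM in round and 63.7 to 131 TPM in sirloin libraries, with 0 genes at 0. Their part in the TIMP3 and TIMP4 values was not tested.

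In the interaction none of the 85 list genes passed. The smallest p-values of each list were those of MMP28 (0.72) and MMP11 (-0.99), TFPI2 (0.72) and CAV1 (0.61), PCSK6 (0.51) and SERPINF2, ADAMTS1 (0.85) and ADAM17 (0.54), COL5A2 (0.83) and COL3A1 (0.80), PLOD2 (0.85) and TGM2 (-0.66), and TGFB3 (0.82) and HGF, as log2 differences. Of the 85 list genes, 5 had an unadjusted p under 0.05, beside 3.78% of all genes.

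The way the members varied from calf to calf was described by the correlation of log2 CPM over the 16 libraries after removal of the group means. The libraries share calves and depth, so the values are a description. Of the 28 pairs of the 8 members with at least 1 TPM on average, MMP2 and MMP14 were the most alike (r = 0.854 over 16 libraries and 0.709 over 14 without the calf of control replicate 2). TIMP2 and TIMP4 were the least alike over 16 libraries (r = -0.0975, and -0.0724 over 14), whereas over 14 libraries MMP19 and TIMP2 were (r = -0.41, and -0.00357 over 16). The median over the pairs was 0.417, and 0.305 without that calf. MMP14 and TIMP1 had r = 0.8 and 0.331, so their likeness rested on that calf, and MMP15 kept 0.687 of 0.753 with TIMP1.

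Among 11898 genes the patterns most like each member were found in the same way. For MMP2 these were PCGF2 (r = 0.926), GPR108 (0.923) and ACSL5 (0.914), and for MMP14 ALDH3B1 (0.932), FKBP9 (0.931) and PARVA (0.925). The MMP14 values fell to 0.675 to 0.7 without control replicate 2, while those of MMP2 were 0.844 to 0.856. MMP15 was most like MRAS (0.95), ATP6V1H (0.921) and APLNR (0.914), and MMP19 most like RHOG2 (0.933), AAAS (0.927) and KBTBD4 (0.925). TIMP1 was most like SFXN3 (0.953), PPP1R18 (0.937) and MXRA8 (0.935), and TIMP2 most like DKK3 (0.901), FOXP1 (0.84) and TMEM86B (0.818). TIMP3 was most like MICALL1 (0.888), CYTH2 (0.885) and FRMD4A (0.879). TIMP4 was most like SHANK3 (0.838), PECAM1 (0.819), a marker of endothelium, and a gene without a symbol (0.817). The TIMP4 values were 0.826 to 0.871 without control replicate 2. The calf of treated replicate 4, with 27.0 CPM of TIMP4 in sirloin and 7.58 in round muscle, was kept in all of these correlations. Its sirloin library also had the highest sum of endothelial markers, 174 TPM. Correlations without that calf were not computed.

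Several members share their locus with another gene in the annotation used for names. Besides MMP14 with RBM23 (mean 15.9 TPM), TIMP1 overlaps SYN1 (2.04 TPM), TIMP2 overlaps CEP295NL (0.213), TIMP3 overlaps SYN3 (0.32) and TIMP4 overlaps SYN2 (1.07). Reads from overlapping genes may not be separable, since the strand setting of the counting is not given in the sources used here. RBM23 was the only overlapping gene with a higher mean TPM than its member. In round muscle it differed by -0.38 (SE 0.329) between the diets, where MMP14 differed by 0.02.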

How the data were processed

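The 16 libraries hold RNA of both muscles of 8 calves. The authors deposited read counts per gene, which are whole numbers without normalization, and a normalized table that its file headers name as TPM. Fold changes and p-values of the authors' own comparisons, also deposited, were left out. Sources differ on the upstream steps: the submitters' processing notes list FastQC, Trimmomatic, STAR, featureCounts, DESeq2 and the build ARS-UCD1.2, and the labels a poly(A) library kit, whereas the study's methods name Trimmomatic, SortMeRNA, HISAT2, Bowtie2, StringTie and a kit that depletes rRNA and globin RNA. How reads of overlapping or antisense genes were assigned may depend on this.

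Symbols came from the RefSeq annotation of ARS-UCD2.0, which named 90.2% of the gene IDs. Sequences are not analysed here, and coordinates served only to find overlapping genes. Genes with at least 1 count in any library entered edgeR 4.0.16 (R 4.3.3, TMM, glmQLFit and glmQLFTest, two-sided, Benjamini-Hochberg over all genes, threshold 0.05). Diets were compared in each muscle by itself, and muscles, and the interaction, over 16 libraries with the calf as a block, since both libraries of a calf come from 1 animal. The study used DESeq2, which is an alternative here (DESeq2 1.42.0), as are limma 3.58.1 (voom, and log2(TPM + 1) and log2(TPM + 0.1)), other normalizations, filterByExpr, other blocks and leaving out calves. The standard error is the log2 fold change divided by the square root of F. CPM are TMM-normalized over 16 libraries. All members passed the filter in every comparison. The scripts were tested on simulated counts in which 200 genes had a log2 change of 2. Of these, 87.5% were recovered in the round and 88% in the sirloin diet comparison. Between muscles 98.5% were recovered, and 29.5% for the interaction. Depth was 44473011 to 72446933 counts per library.

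Lists were reported by counts and median, naming called genes (at most 6) or the 2 with the smallest p. One list gene is not reported here. ACTA2, PDGFRA, MPO, ELANE, CD163, AIF1, MRC1 and the red blood cell genes were named after their values were seen. Likeness used the 3 highest correlations over genes with a mean of at least 1 TPM. The members and lists were chosen with earlier results of these data known.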

Additional observations from a re-analysis of the deposited data

Results flagged for a closer look

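Single libraries far from the others of their group were sought for each member with Dixon's test on CPM at its 95% critical value for 4 libraries. Of 35 groups tested 6 were flagged. Chance flags about 1 in 20 groups of independent, normally distributed values. The CPM of genes from the same libraries were not shown to be so, and no excess is read from the count. In round control replicate 2, MMP14 was at 21.8 CPM, with 4.15 to 5.39 in the other controls. In the same library TIMP1 was at 12.2 CPM, with 2.36 to 3.86 in the others. Sirloin control replicate 2, from the same calf, had 2.36 CPM of MMP19, with 0.399 to 0.647 in the others. TIMP4 was at 30.9 CPM in round control replicate 1, with 17 to 19.2 in the others. In sirloin treated replicate 4, TIMP4 was at 27 CPM, with 13.1 to 13.8 in the others. MMP9 was at 0.0874 CPM in round control replicate 4, which is 4 counts, with 0 in the others, where any count would be flagged.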

How the results depend on the processing

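In all 4 comparisons no member was called under any alternative, except TIMP3 and TIMP4 (lower in sirloin) without treated replicate 4. MMP2 and MMP14 in sirloin muscle kept their direction and an unadjusted p under 0.05 in all alternatives. The count of genes called in round muscle (4) was 46 with DESeq2, 1 with limma-voom, 0 on log2(TPM + 1) (797 at an unadjusted p under 0.05), 1 on log2(TPM + 0.1), 0 to 3 without 1 calf and 0 without both libraries named below (1609 at an unadjusted p under 0.05). In sirloin muscle (2) it was 13 with DESeq2, 0 with limma-voom (682 unadjusted), 0 on log2(TPM + 1) (1097), 1 on log2(TPM + 0.1), 0 to 1 without 1 calf and 0 without both (947). Between muscles (122) it was 822 with DESeq2, 57 on log2(TPM + 1), 75 on log2(TPM + 0.1), 44 to 368 without 1 calf, with 79 without control replicate 2, 51 and 54 without control replicates 3 and 4, 44 without treated replicate 1 and 368 without treated replicate 4, and 80 without both. For the interaction (1) it was 5 with DESeq2, 0 on log2(TPM + 1) (1083) and log2(TPM + 0.1) (1103), 0 to 2 without 1 calf and 0 without both (761). DESeq2 called all 4, both, 120 and the 1 of these genes too. The causes were not tested.

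With the replicate block in the diet comparisons, 2 genes were called in round and 0 in sirloin muscle (463 unadjusted), and without the calf as a block 14 genes between muscles and 0 for the interaction (637). Control and treated libraries share only a number: their correlations were -0.0402 to 0.293 in round and -0.29 to 0.266 in sirloin muscle, and at most 2 of 4 libraries were closest to their own number. The block reversed MMP19 in round muscle to 0.0826, and its absence MMP14 between muscles to -0.0114, and neither was called.

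Other reversed log2 values, none called, were MMP19 in round (0.0583, log2(TPM + 0.1)), TIMP2 in sirloin (0.15 and 0.16, log2(TPM + 1) and log2(TPM + 0.1)), and between muscles MMP9 (0.0364 and 0.13) and MMP15 (0.0179 and 0.0137) on the same scales. On log2(TPM + 0.1) the median of all genes in sirloin muscle was 0.142, so MMP2 (0.98) and MMP14 (1.26) are read against that shift. Without the calves of control replicate 2 and treated replicate 4 (chosen after seeing the data), reversed values in round were 0.57 for MMP19, 0.52 for TIMP1, 0.0735 for TIMP4, 0.041 for MMP16 and 0.21 for FN1, in sirloin -0.15 for A2M, between muscles 0.0317 for TIMP2, and for the interaction -0.33 for TIMP1, -0.13 for TIMP2 and -0.0233 for CAV1. Leaving out 1 calf gave ranges across 0 in round for MMP14 (-0.21 to 0.91), MMP15 (-0.17 to 0.51), MMP16 (-2.23 to 0.36), MMP19 (-0.98 to 0.38), TIMP1 (-0.82 to 0.33), TIMP4 (-0.45 to 0.13), COL1A1 (-1.95 to 0.22) and FN1 (-1.61 to 0.0912), in sirloin for MMP15 (-0.62 to 0.0847), TIMP1 (-0.051 to 0.30), TIMP2 (-0.28 to 0.30), TIMP3 (-0.11 to 0.16), A2M (-0.19 to 1.33) and PCSK5 (-0.0372 to 1.01), and between muscles for MMP2 (-0.0349 to 0.16), MMP9 (-1.29 to 1.04), MMP14 (-0.0022 to 0.33), MMP15 (-0.19 to 0.0529) and TIMP2 (-0.23 to 0.16). Depth limited only MMP9, which the filterByExpr setting left out.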
